A study of Homo sapiens with 2 samples.

Results

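The genes described here encode NF-kB, a family of transcription factors, and the inhibitors that hold it back. The 10 members are the 5 subunit genes NFKB1, NFKB2, REL, RELA and RELB, the IkB genes NFKBIA, NFKBIB and NFKBIE, and the ubiquitin regulators TNFAIP3 and BIRC3. They were taken by gene symbol from the 53737 genes in the deposited tables. RNA was measured in SK-ES-1, a long-established line of Ewing sarcoma, a tumour of bone and soft tissue, that the labels give as wild type with bone as its tissue. A library of slow-cycling cells (SCC) was set against a library of non-slow-cycling cells (non-SCC), so the design has 2 libraries, 1 per group. No treatment, time point or passage is named in the labels, both libraries come from the same line, and how the slow-cycling cells were isolated is not given in the sources used here. With no replicates, no difference given here could be checked against an error, and no p-value was computed.

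NF-kB proteins act as pairs of subunits. In resting cells IkB proteins bind the pairs and keep them out of the nucleus. In the canonical route a kinase complex marks IkB for destruction, which frees pairs of RELA or REL with p50, the product of NFKB1. In the non-canonical route the kinase NIK leads to processing of the NFKB2 precursor p100 into p52, which pairs with RELB. Several members, among them NFKBIA, NFKB2, RELB, TNFAIP3 and BIRC3, are themselves transcribed by NF-kB, and the inhibitors among them close a feedback loop. The pathway is best known from immune and inflammatory responses and from the survival of stressed cells.

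Promoter windows, each running from 250 bases before to 50 bases after an annotated start in RefSeq (GRCh38.p14), were searched for the kB consensus, the degenerate DNA sequence that NF-kB pairs bind, on both strands. Of the 10 members, 8 had a window, and RELB and NFKBIE are named only. At least 1 window held a match in 7 of the 8, against 1937 of the 27305 genes with a window (7.09%). RELA, the only one of the 8 without a match, had none in either of its 2 windows. The 5 windows below are shown because their genes differ in level and in ratio. NFKB2 had the largest log2 ratio of the tested members, NFKBIA was the most abundant inhibitor, NFKBIB had the lowest log2 ratio, and TNFAIP3 and BIRC3 were at or near 0. Each is written 5′ to 3′ on the strand of the gene, with consensus matches in capitals.
NFKB2, chr10:102394328-102394627, plus strand: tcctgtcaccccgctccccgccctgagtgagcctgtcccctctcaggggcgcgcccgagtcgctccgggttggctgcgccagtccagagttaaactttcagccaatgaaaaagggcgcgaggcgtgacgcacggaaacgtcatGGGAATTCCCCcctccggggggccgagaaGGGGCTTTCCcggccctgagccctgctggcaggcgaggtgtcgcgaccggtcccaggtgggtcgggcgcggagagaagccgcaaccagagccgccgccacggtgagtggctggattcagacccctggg
NFKBIA, chr14:35404700-35404999, minus strand: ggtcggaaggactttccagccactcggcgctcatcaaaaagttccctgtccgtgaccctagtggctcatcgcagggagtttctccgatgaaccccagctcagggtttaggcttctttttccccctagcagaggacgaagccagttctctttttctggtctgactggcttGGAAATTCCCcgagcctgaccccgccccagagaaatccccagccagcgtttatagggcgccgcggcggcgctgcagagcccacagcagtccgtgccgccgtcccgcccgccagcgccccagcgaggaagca
TNFAIP3, chr6:137867009-137867308, plus strand: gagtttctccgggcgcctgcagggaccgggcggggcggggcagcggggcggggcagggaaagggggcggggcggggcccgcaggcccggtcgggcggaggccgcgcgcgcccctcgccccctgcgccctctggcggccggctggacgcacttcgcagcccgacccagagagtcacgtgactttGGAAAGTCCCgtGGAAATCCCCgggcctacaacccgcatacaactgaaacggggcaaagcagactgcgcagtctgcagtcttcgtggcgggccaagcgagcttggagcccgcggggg
NFKBIB, chr19:38899719-38900018, plus strand: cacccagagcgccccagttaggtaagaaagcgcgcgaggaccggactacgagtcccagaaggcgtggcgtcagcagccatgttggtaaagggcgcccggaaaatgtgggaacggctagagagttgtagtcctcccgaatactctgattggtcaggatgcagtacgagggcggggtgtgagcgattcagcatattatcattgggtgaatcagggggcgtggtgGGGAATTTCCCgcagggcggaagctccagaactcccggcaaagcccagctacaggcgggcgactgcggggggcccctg
BIRC3, chr11:102317234-102317533, plus strand: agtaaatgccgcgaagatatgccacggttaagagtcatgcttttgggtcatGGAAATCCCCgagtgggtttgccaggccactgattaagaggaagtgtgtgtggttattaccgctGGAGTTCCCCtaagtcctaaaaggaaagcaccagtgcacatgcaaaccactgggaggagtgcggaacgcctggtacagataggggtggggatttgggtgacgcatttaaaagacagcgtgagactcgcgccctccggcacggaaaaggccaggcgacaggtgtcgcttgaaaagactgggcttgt

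The NFKB2 window shown, one of 3 annotated for the gene, held 2 separate stretches. The run GGGAATTCCCC, in which 3 matches overlap across both strands, began 107 bases before the start, and GGGGCTTTCC began 78 bases before it. NFKBIA carried GGAAATTCCC from 81 bases before the start, a match when read on the other strand as GGGAATTTCC. The same 10 letters, read on the plus strand, were found in NFKB1 from 49 bases before the start. In NFKBIB and REL the matches on both strands overlapped, in the runs GGGAATTTCCC and GGGAAATTCCC. TNFAIP3 and BIRC3 had 2 matches each, all read on the minus strand, and both had one written GGAAATCCCC in the window. Not every window of a gene with a match held one. The NFKB2 window from base 102393860, the NFKB1 window from 102501684 and the NFKBIB window from 38899416 held 0. The NFKB2 window from 102395455 held 2 separate matches. Consensus matches stood in promoters of members with higher, lower and near-zero levels alike. Across all genes with a window, the median log2 ratio was 0.04 over 891 tested genes with a match and 0.03 over 9542 without. A match is a run of letters and was not shown here to be bound.

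The deposited values, whose scale is not stated, were taken as log2 values and back-transformed here to per-million units by subtracting 1 from 2 raised to each value. A log2 ratio is the deposited value in the SCC library minus that in the non-SCC library. It understates the difference of genes near 0. A gene was tested, meaning compared, when it had at least 1 unit in at least 1 library, and called when it differed by at least 1.5-fold on this scale. Of the 10 members 8 passed that filter. TNFAIP3 was above 0 in 1 library but under 1 unit, and BIRC3 was listed at 0 in both. Over the whole series 13444 genes were tested, 14606 table lines were above 0 in the SCC and 14197 in the non-SCC library, and the read depth was unknown. All 13 protein-coding genes of mitochondrial DNA had a value of 0 in each library, so a 0 here need not mean that a transcript was absent. Why these genes were at 0 was not tested. All 9 Ewing sarcoma markers were above 0, and their summed level was 2174 units in the SCC and 2173 units in the non-SCC library. CCND1 alone was at 1081 units in the SCC and 1066 in the non-SCC library. Single markers differed in both directions, with log2 ratios above 0 in 6 and below 0 in 3. They ran from -0.30 for NR0B1 to 0.30 for NPY. Of these markers 0 were called, against 5.38% of all tested genes called higher and 1.41% called lower.

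All 5 NF-kB subunits had a higher level in the SCC library, and NFKB2 was the only tested member past 1.5-fold on the log2 ratio scale. Of the 8 tested members, 1 was called higher, against 5.38% of all tested genes, and 0 were called lower, against 1.41%. A single call among so few genes says nothing about the members as a group. The log2 ratio was above 0 in 6 of the 8, against 56.2% of tested genes. Ratios ran higher at low levels: 68.9% of genes at 1 to 4 units and 66.5% of those at 4 to 16 units, bands that hold 5 of the 8 members, had a ratio above 0. The median log2 ratio of the 8 was 0.30, beside 0.03 over all tested genes, and 0.17 with the level trend removed, that is, after the median ratio of genes at like level was subtracted. It was 0.40 over the 5 subunits, or 0.20 with the level trend removed, and -0.01 over the 3 tested inhibitors, or -0.15 with that trend removed. In bulk RNA, a change in the number of cells that hold a transcript and a change in its amount per cell cannot be told apart.

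**Figure D1:**
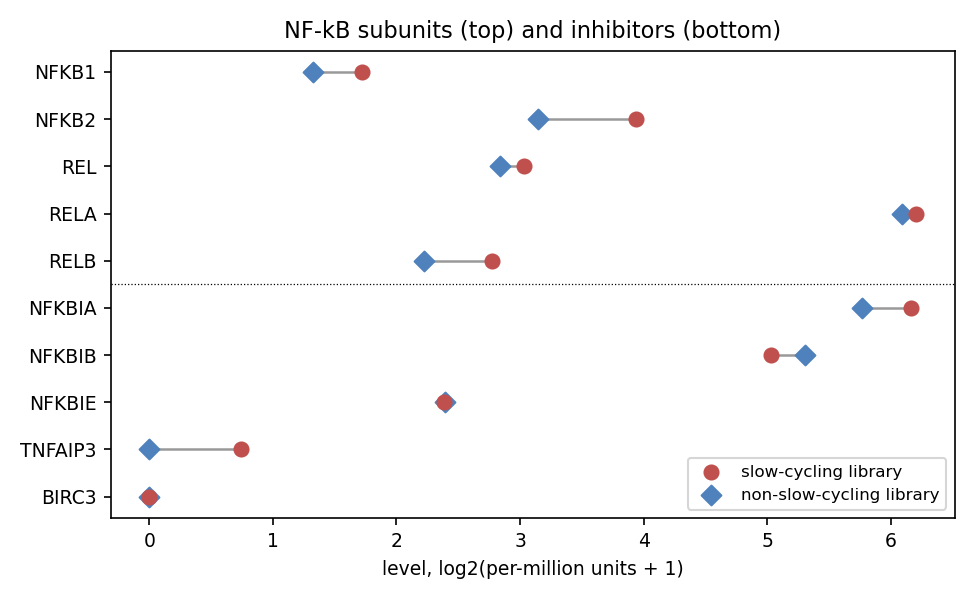
Level of each member in the slow-cycling library (circles) and the non-slow-cycling library (diamonds), as log2 of per-million units plus 1, with subunits above the dotted line and inhibitors below it. The circle lies to the right of the diamond for all 5 subunits, for NFKBIA and for TNFAIP3, to its left for NFKBIB, and on it for NFKBIE and BIRC3.

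NFKB2 encodes p100, the precursor of p52, and p100 also holds RELB in the cytoplasm as an IkB-like inhibitor. The gene lies on chromosome 10 (102394110 to 102402529, GRCh38), and its level was 14.3 per-million units in the SCC library and 7.86 in the non-SCC library. The log2 ratio was 0.79, and 1.82% of the other 3570 tested genes of 4 to 16 units, the band of like mean level, had a higher one. In that band 4.73% of genes were called higher. NFKB2 was thus among the higher ratios of genes at its level, though not outside their range.

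RELB, on chromosome 19 (45001464 to 45038192), encodes the usual partner of p52. Its level was 5.85 units in the SCC library and 3.67 in the non-SCC library, a log2 ratio of 0.55, just under the 0.58 that 1.5-fold requires. The quotient of the levels with no pseudocount was 1.59. With a pseudocount of 0.1 its log2 ratio was 0.66 and it was called higher as well, so its place on either side of the threshold rests on that choice. Of the genes in its band, 5.55% had a higher ratio.

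NFKB1, the gene of p105 and p50 on chromosome 4 (102501359 to 102617302), was the lowest of the subunits. It was at 2.30 units in the SCC and 1.51 in the non-SCC library, with a log2 ratio of 0.40, or 0.20 with the level trend removed. The quotient of its levels with no pseudocount was 1.53. With a pseudocount of 0.1 its log2 ratio was 0.579, just under the 0.585 of the threshold. Ratios of genes at 1 to 4 units scattered widely, since 17.4% of them were called higher and 28.8% had a ratio above that of NFKB1. The NFKB1 difference was therefore of a size common at its level. Its antisense gene NFKB1-AS1, which overlaps it by 1128 bases, was listed at 0 in the SCC and at 0.685 units in the non-SCC library, and whether the counting used strand is not stated.

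REL and RELA encode the subunits with transactivation domains that pair with p50. REL, on chromosome 2 (60881574 to 60931612), was at 7.19 units in the SCC and 6.14 in the non-SCC library, a log2 ratio of 0.20, or 0.08 with the level trend removed. RELA, on chromosome 11 (65653601 to 65663857), was at 72.9 and 67.0 units in the SCC and non-SCC libraries, a log2 ratio of 0.12. Neither was called. RELA was nevertheless above the middle of its own band, since genes of 64 units or more had a median log2 ratio of -0.06 and 12.9% of them had a higher ratio than RELA.

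**Figure D2:**
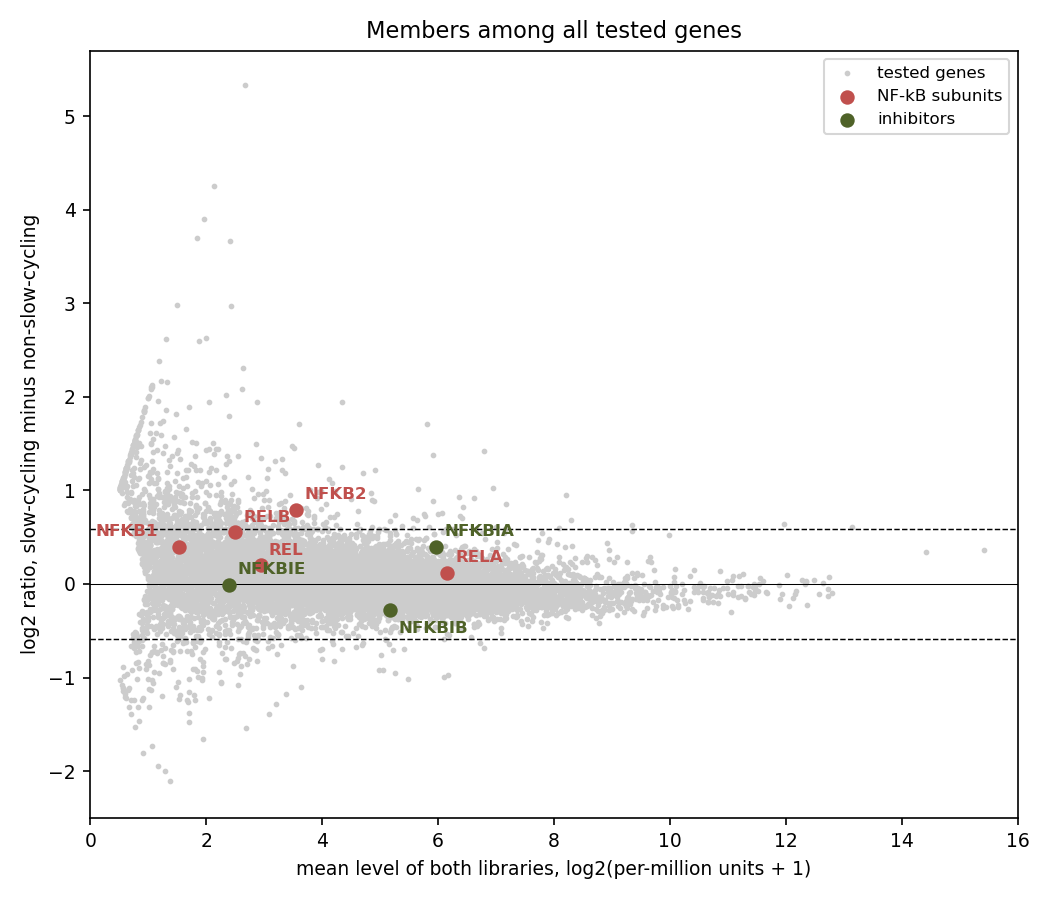
Log2 ratio (slow-cycling minus non-slow-cycling) against the mean of both libraries' log2 levels for the 13444 tested genes (grey) and the 8 tested members (subunits in red, inhibitors in green). Dashed lines mark 1.5-fold, and of the members NFKB2 alone lies outside them.

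The make-up of the subunit transcripts differed between the libraries. Levels of different genes are compared here as per-length values, an inference from the numbers: among tested protein-coding genes the median level in the SCC library was 56.9 units for transcripts of 500 to 1000 bases and 18.2 units for those of 8000 to 20000 bases, whereas plain read counts would grow with length. On this scale RELA made up 71.1% of the summed subunit level in the SCC library and 77.8% in the non-SCC library. NFKB2 and RELB, the non-canonical pair, together made up 19.7% in the SCC and 13.4% in the non-SCC library. In units the pair summed to 20.2 in the SCC and 11.5 in the non-SCC library, while all 5 subunits summed to 102.6 in the SCC and 86.2 in the non-SCC library. The quotient of RELA to NFKB2 was 5.09 in the SCC and 8.53 in the non-SCC library. These are transcript levels and do not give the amount of any NF-kB pair. The shares and quotients were not corrected for the level trend, which runs the same way. The median log2 ratio was 0.10 at 4 to 16 units, the band of NFKB2 and RELB. It was -0.06 at 64 units or more, the band of RELA.

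NFKBIA encodes IkB-alpha, the inhibitor that NF-kB itself induces within the feedback loop. It lies on chromosome 14 (35401513 to 35404749) and was at 70.7 units in the SCC and 53.4 in the non-SCC library. The log2 ratio was 0.40, under the 1.5-fold threshold. Ratios of this size were uncommon at its level: in the band of 16 to 64 units 2.72% of genes had a higher ratio and 0.714% were called higher. The same log2 ratio, at this rounding, was found for NFKB1, where it was common.

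NFKBIB encodes IkB-beta, which is degraded by the same kinase complex but is less tied to rapid feedback. On chromosome 19 (38899666 to 38908889), it was at 31.7 units in the SCC and 38.5 in the non-SCC library. Its log2 ratio of -0.27 was the lowest of the members, and 4.72% of the other genes in its band had a lower one. NFKBIA and NFKBIB thus differed in opposite directions. The quotient of NFKBIA to NFKBIB was 2.23 in the SCC and 1.39 in the non-SCC library.

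NFKBIE, the gene of IkB-epsilon on chromosome 6 (44258166 to 44265551), was at 4.21 units in the SCC and 4.24 in the non-SCC library, a log2 ratio of -0.01. It turned to 0.02 when the libraries were scaled to the same upper quartile, and was -0.15 with the level trend removed. The 3 IkB genes together summed to 106.6 units in the SCC and 96.2 in the non-SCC library. Set against the summed subunits, IkB transcripts stood at a quotient of 1.04 in the SCC and 1.12 in the non-SCC library. NFKBIA made up 66.3% of IkB transcripts in the SCC and 55.5% in the non-SCC library.

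**Figure D3:**
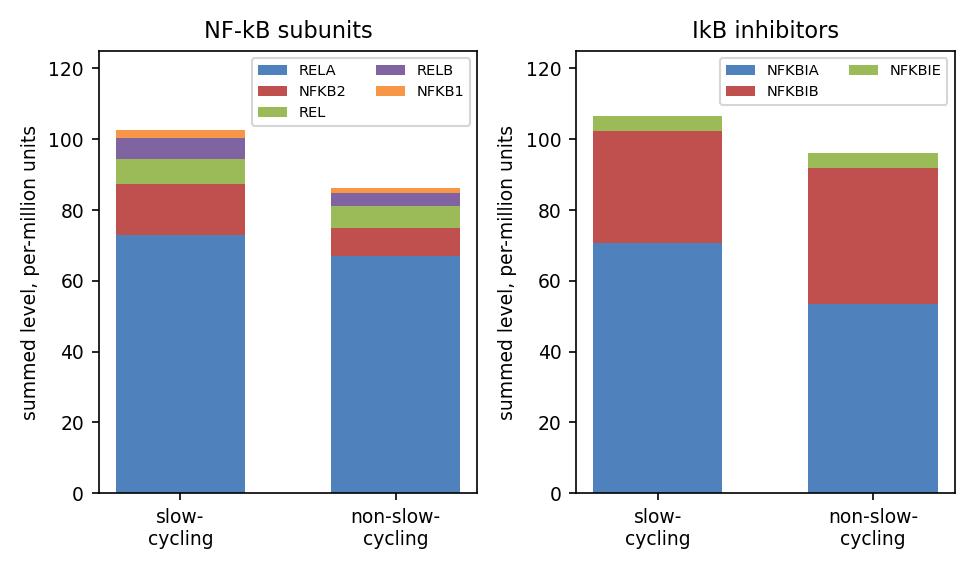
Summed per-million units of the 5 NF-kB subunits (left) and the 3 IkB inhibitors (right) in the slow-cycling and non-slow-cycling libraries, 1 library each, with no error bars because there are no replicates. RELA fills most of each subunit bar, the NFKB2 segment is taller in the slow-cycling bar, and the NFKBIA segment is taller and the NFKBIB segment shorter in the slow-cycling bar.

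TNFAIP3 encodes A20, an enzyme that edits ubiquitin chains and ends signalling from TNF and Toll-like receptors. The gene, on chromosome 6 (137866349 to 137883312), was at 0.676 units in the SCC library and listed at 0 in the non-SCC library, so no fold is given. BIRC3 encodes cIAP2, a ubiquitin ligase that acts on both routes. Located on chromosome 11 (102317484 to 102339403), BIRC3 had a value of 0 in each library. Its close relative BIRC2, the gene of cIAP1, was at 20.3 units in the SCC and 18.1 in the non-SCC library.

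The order of the members by level was nearly the same in both libraries. RELA led, followed by NFKBIA, NFKBIB, NFKB2 and REL in each. RELB stood above NFKBIE in the SCC library and below it in the non-SCC library, and NFKB1 came before TNFAIP3 and BIRC3 in both. With no replicates, which neighbours in that order differ beyond their spread cannot be said.

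The kinases and adaptors that lead to NF-kB showed small differences. Of 25 such genes 24 were tested, and the median log2 ratio was 0.03, the value over all tested genes at this rounding. In this list 0 were called in either direction, against 5.38% of all tested genes called higher and 1.41% called lower. At 16 to 64 units, the band of the IkB kinase genes named next, 0.714% of genes were called higher. The IkB kinase subunits CHUK, IKBKB and IKBKG had log2 ratios of -0.12, -0.01 and -0.09, that of IKBKB turning to 0.03 with upper quartile scaling. MAP3K14, the gene of NIK, was at 2.63 units in the SCC and 2.34 in the non-SCC library, a log2 ratio of 0.12 that turned to -0.05 with the level trend removed. The members of the list with the largest absolute log2 ratios were the adaptors TRAF5 at 0.41, TRADD at 0.37 and TRAF6 at 0.31, and MYD88, the adaptor of Toll-like and interleukin-1 receptors, at -0.22. IKBKG has a near-identical pseudogene with which reads can be shared, so its level is uncertain.

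Of 21 receptors 8 were tested, and 11 had a value of 0 in each library, among them LTBR, the lymphotoxin receptor of the non-canonical route. The TNF receptor TNFRSF1A was at 41.5 units in the SCC and 38.1 in the non-SCC library. TNFRSF12A, the TWEAK receptor, was at 7.61 and 5.66 units in the SCC and non-SCC libraries, and the death receptor TNFRSF10B was at 105.8 in the SCC and 93.0 in the non-SCC library. NGFR, the neurotrophin receptor, had a log2 ratio of -0.13. TLR5, the flagellin receptor, was the only receptor called higher, at 2.02 and 0.350 units in the SCC and non-SCC libraries. By mean level it was in the band of 1 to 4 units, where 17.4% of genes were called higher, against 5.38% of all tested genes. Of 11 ligands 0 were tested. TNF and 9 others had a value of 0 in each library, and TNFSF13B was under 1 unit in both.

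Other brakes on the pathway were mostly close to 0 on the log2 ratio scale. Of 19 such genes 15 were tested, with a median log2 ratio of 0.14. Among them 0 were called, against 5.38% of all tested genes called higher and 1.41% called lower. BCL3, a nuclear IkB protein that binds p50 and p52 pairs, had the largest ratio of the list, at 3.26 units in the SCC and 1.99 in the non-SCC library and a log2 ratio of 0.51. It passed 1.5-fold with a pseudocount of 0.1. NFKBID, another nuclear IkB gene, had a log2 ratio of 0.33 and the RNase gene ZC3H12A 0.20, while TNIP2, a partner of A20, was at -0.20. CYLD, the deubiquitinase that opposes the adaptors, was at 2.18 units in the SCC and 2.32 in the non-SCC library.

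Targets of NF-kB were taken as a survival list and an inflammatory list. Of 10 survival targets 8 were tested and 2 were called higher, against 5.38% of all tested genes. GADD45B, a stress-response gene, was at 11.5 units in the SCC and 6.37 in the non-SCC library. IER3, an early response gene, was at 13.8 in the SCC and 7.81 in the non-SCC library. CFLAR, the inhibitor of death receptor signalling, had a log2 ratio of 0.27, and TNFAIP8 -0.31. The median of the 8 was 0.18. Of 22 inflammatory targets 7 were tested and 12 had no value above 0. Of those tested, 4 were called higher, but PTGS2, CCL20 and CXCL3, at 1.88, 1.06 and 1.04 units in the SCC library, were listed at 0 in the non-SCC library. A tested gene listed at 0 in 1 library is past 1.5-fold by construction. The other call was IRF1, an interferon regulatory factor, at 2.67 and 1.07 units in the SCC and non-SCC libraries. In its band of 1 to 4 units 17.4% of genes were called higher. Without the 3 genes listed at 0 the median log2 ratio of this list was 0.31 in place of 0.83.

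**Figure D4:**
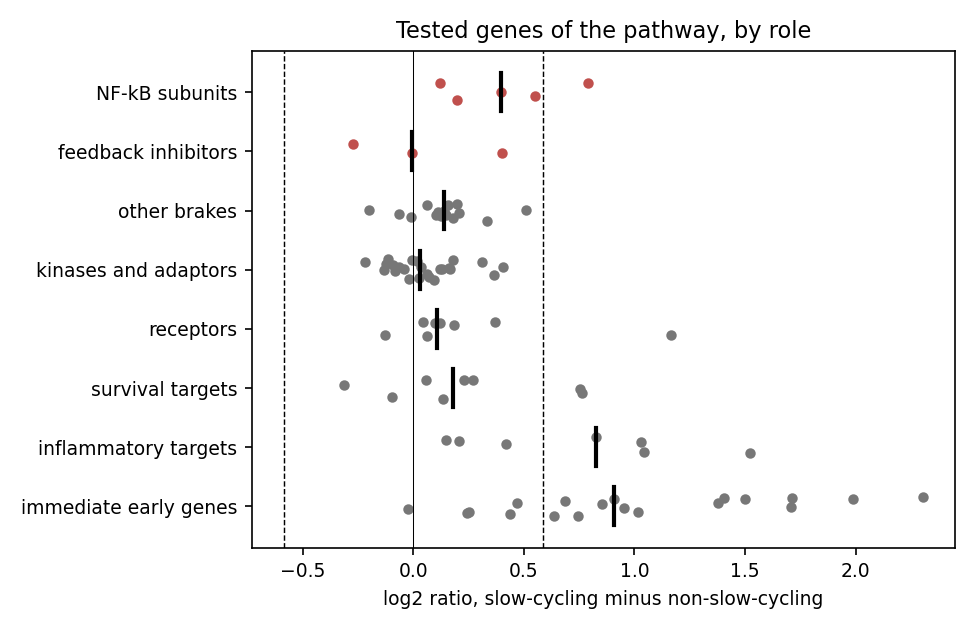
Log2 ratio (slow-cycling minus non-slow-cycling) of each tested gene in 8 lists of the pathway and its surroundings, one point per gene, with the list median as a black bar and 1.5-fold as dashed lines. The subunits have a median of 0.40, the kinases and adaptors one of 0.03, and the immediate early genes one of 0.91.

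Immediate early genes, which cells transcribe soon after a stimulus or handling, mostly had a higher level in the SCC library. Of 22 such genes 19 were tested, with a median log2 ratio of 0.91. Of the 19, 18 had a ratio above 0, against 56.2% of all tested genes, and 14 were called higher, against 5.38%. Like the other lists, this one was chosen with earlier results of these data known. Its comparison with all tested genes is therefore not an independent one. The summed level of the 22 was 3123 units in the SCC and 2060 units in the non-SCC library. The largest ratios were those of EGR3, EGR4, ATF3 and FOSB. EGR4 was at 2.97 units in the SCC library and listed at 0 in the non-SCC library, so its call is by construction. FOSL1, also called, was at 2.86 units in the SCC and 0.461 in the non-SCC library. Over genes above 0 in both libraries the list median was 0.88. The part of the immediate early genes in the differences of NFKB2, NFKBIA, GADD45B and IER3 was not tested. Markers of other cell types were counted as well. Of 12 immune cell markers 3 were above 0 in the SCC and 2 in the non-SCC library, summing to 11.1 units in the SCC and 7.38 units in the non-SCC library, mostly from LYZ. The defining marker PTPRC, CD3D, CD3E, MS4A1 and CSF1R were listed at 0 in both. None of the 5 endothelial markers had a value above 0. Such zeros need not mean absence, since the mitochondrial genes were also at 0 in each library. Of the 7 fibroblast markers 7 were above 0 in the SCC and 6 in the non-SCC library, summing to 223.6 units in the SCC and 206.7 units in the non-SCC library, mostly from the collagens COL1A2 and COL3A1. All 6 tested fibroblast markers were above 0 in log2 ratio, against 56.2% of all tested genes, and their median was 0.35. COL1A2 and COL3A1 had log2 ratios of 0.05 and 0.07. The 2 called higher, COL1A1 and FAP, were in the band of 1 to 4 units. In that band 68.9% of genes had a ratio above 0 and 17.4% were called higher. COL1A1, a collagen gene, was at 3.19 units in the SCC and 1.15 in the non-SCC library, and FAP, a fibroblast surface protease, was at 3.67 units in the SCC and 1.74 in the non-SCC library. Their part in the members' differences was not tested.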

How the data were processed

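Poly(A)-selected RNA from 2 SK-ES-1 libraries was made with a stranded mRNA kit, per the labels' protocols. Per the submitters' processing notes, the reference was hg38. The aligner, the counter and its annotation were not given in the sources used here. The authors deposited 1 column per library, normalized per the file headers, taken here as log2 values of per-million units plus 1, because the back-transformed values summed to 983638 in the SCC (slow-cycling) and 984120 in the non-SCC library. The headers call the cells LRC and non-LRC, and groups follow the sample labels. Lines of 1 gene ID that differed in a locus suffix were summed. Gene class and coordinates came from RefSeq (GRCh38.p14), which matched 51252 of 53737 gene IDs. Log2 ratios, a minimum of 1 unit and a fold of 1.5 were used as described, in Python 3.11.15 with numpy 2.4.6 and pandas 2.3.3, checked on simulated data. With 1 library per group no test was possible. Named genes were all members, the up to 4 tested genes with the largest absolute log2 ratio of each pathway list, and a fixed set of pathway genes. Members and lists were chosen with earlier results of these data known. Alternatives covered scaling, pseudocount, filter, fold, level trend and gene class.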

Additional observations from a re-analysis of the deposited data

How the results depend on the processing

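NFKB2 remained the called member under every alternative except a 2-fold threshold, where 0 members were called. With a pseudocount of 0.1 there were 2 members called higher, RELB being added with a log2 ratio of 0.66, and with no filter there were also 2, TNFAIP3 being added. No member was called lower under any alternative. The signs of NFKBIE and of the inhibitors' median were not stable: with upper quartile scaling both were at 0.024, and the median was 0.20 with no filter and 0.063 at a minimum of 5 units. With the level trend removed the median of the tested members was 0.17, that of the subunits 0.20 and that of the inhibitors -0.15. The median of the kinases and adaptors was -0.0022 once the overall median was set to 0, and -0.010 after removal of the level trend. The median of the inflammatory targets was 0.58 with no filter, 0.18 at a minimum of 5 units and 0.31 over genes above 0 in both libraries. At 2-fold the inflammatory median of 0.83, the immediate early median of 0.91 and the NFKB2 ratio of 0.79 were under the threshold. Genes called higher over the whole table numbered 723, with 255 at a minimum of 5 units, 255 at 2-fold and 434 without the level trend. Genes called lower numbered 189, with 311 at a pseudocount of 0.1, 70 at a minimum of 5 units, 58 at 2-fold, 355 without the level trend and 71 among protein-coding genes. Where neither the alternative's own threshold nor its smaller gene set explains a change, the cause was not tested. No paired analysis was possible because each group has 1 library. Leaving out a replicate was not run for the same reason. The unknown read depth limits what can be said of genes near 0.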
